A study of Mus musculus with 7 samples.

Results

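The 9 genes described here encode the machinery of MHC class II presentation in the mouse: the chains H2-Aa, H2-Ab1 and H2-Eb1 of the presenting molecules, the invariant chain Cd74, the peptide loaders H2-DMa and H2-DMb1, the loading modulators H2-Oa and H2-Ob, and the transcriptional coactivator Ciita. They were chosen by name, as 9 of the 55491 gene rows of a single-cell UMI matrix, and all 9 were present. Their levels are given as CPM, the UMIs of a gene per 1000000 UMIs of a cell annotation in a library, over the 23 annotations that the submitters assigned to 28644 cells. The comparison is between the monocyte, macrophage, dendritic cell, B cell and microglia annotations, with joined T cells as the background. UMI counts compare a gene between annotations; a comparison of levels between different genes also carries how efficiently each is captured.

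Cells came from brains carrying the syngeneic CT-2A glioma, implanted at 8 to 12 weeks of age. The Siglece KO mice (KO, n = 4) were Sall1CreERT2 x Siglecefl/fl, in which tamoxifen deletes Siglece in cells that express Sall1, a microglial transcription factor. The WT mice (n = 3) carried the floxed Siglece alleles without Cre, so both groups shared the floxed background (B6.129P2) and the tumour. They differed in the Sall1CreERT2 allele itself, and the part of that allele in KO over WT was not tested. Both groups also received tamoxifen, 2.5 mg per injection from day 7, daily to day 21 and then on alternate days. Suspensions were frozen, thawed and sorted as live CD45+ and/or CD11b+ cells, and each mouse gave 1 library of the 10x Genomics 5′ assay.

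MHC class II molecules are αβ dimers that carry peptides from endocytosed proteins to CD4+ T cells. Cd74 occupies the groove during assembly, H2-DM exchanges the remaining Cd74 fragment for peptide in the endosome, and H2-O restrains H2-DM. Transcription requires Ciita, which is recruited to a shared promoter module of an X box, bound by the Rfx5, Rfxap and Rfxank complex, and a Y box, bound by NF-Y. Dendritic cells, B cells and macrophages are the classical class II-expressing cells, and microglia are known to acquire class II in inflammation.

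Libraries held 1410 to 5856 cells, with a median of 4479 to 9554 UMIs per cell. Joined T cells made up 43.5% to 79.9% of the KO libraries and 10.6% to 33.8% of the WT libraries, the lowest being WT 1. Over all cells of a library, Ifng, the cytokine known to induce Ciita, stood at 180 to 501 CPM in KO and at 31.3 (WT 1), 127 and 188 in WT. The targeted gene Siglece gave 2, 1, 0 and 0 UMIs in microglia of KO 1 to KO 4 (10.7, 19.6, 0 and 0 CPM, where a count of 0 allows up to 81.3 and 16.7 CPM) and 20, 19 and 7 UMIs in WT 1 to WT 3 (36.1, 45.9 and 18.6 CPM), from 13 to 113 microglia a library. These limits cover counting error only. In joined monocytes and macrophages Siglece was at 48.7, 41.8, 44.8 and 41.0 CPM in KO and at 51.0, 52.9 and 26.6 in WT. In monocyte-derived dendritic cells it was at 57.6 to 92.5 in KO and 80.9 to 98.3 in WT. Sall1 in microglia was at 48.2, 39.2, 108 and 66.7 CPM in KO 1 to KO 4, from 2 to 12 UMIs a library. In WT 1 to WT 3 it was at 130, 145 and 90.1. WT 1 stood apart in its macrophages as well, so the KO over WT estimates in macrophages are also given without it. Of 28178 distinct barcodes, 460 occurred in more than 1 library.

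Outside Cd74, the members lie in 2 places of build GRCm38 (GENCODE M21). Ciita is on chromosome 16, from 10480059 to 10528418 on the plus strand. The other 7 lie in the class II region of chromosome 17, from H2-Oa (34092340 to 34095234, plus strand) to H2-Eb1 (34305867 to 34316674, plus strand), with H2-Aa (34282744 to 34287823) on the minus strand.

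The promoters are shown for the module known to recruit Ciita, where RefSeq's promoter table (GRCm38.p6) held them, for 6 of the 9. The windows below are read 5′ to 3′ on the strand of the gene. The first capitals mark an X box short core, CNNGNAAC, and the second a Y box core, ATTGG.
H2-Aa: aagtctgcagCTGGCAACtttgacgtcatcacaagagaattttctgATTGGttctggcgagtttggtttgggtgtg
H2-DMb1: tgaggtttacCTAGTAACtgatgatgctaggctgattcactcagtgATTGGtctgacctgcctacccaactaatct
H2-Eb1: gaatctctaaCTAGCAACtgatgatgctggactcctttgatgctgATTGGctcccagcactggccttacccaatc
H2-Oa: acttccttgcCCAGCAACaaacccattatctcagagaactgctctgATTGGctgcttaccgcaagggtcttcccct
H2-Ob: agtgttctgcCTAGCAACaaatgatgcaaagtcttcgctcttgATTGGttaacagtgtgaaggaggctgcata
They lie at chr17:34287842-34287917 (H2-Aa, minus strand), chr17:34153084-34153159 (H2-DMb1), chr17:34305763-34305837 (H2-Eb1), chr17:34092290-34092365 (H2-Oa) and chr17:34238805-34238877 (H2-Ob). In all 5 the X core preceded the Y core on the gene's own strand, with 25 bases between them in H2-Ob, 27 in H2-Eb1 and 28 in H2-Aa, H2-DMb1 and H2-Oa. Neither of the 2 H2-DMa promoters in the table held this pair.

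Over 32851 promoters, searched on both strands in the 250 bases before the start, 33.85% held ATTGG, 33.34% held CNNGNAAC and 12.55% held the longer CCNNGNAAC, which contains it. The ordered pair, CNNGNAAC followed on the same strand by ATTGG after 15 to 40 bases, was held by 0.886%. The short core and the spacing were set after these promoters had been read, so the match is a description of the letters. Of the members in the table, H2-DMa, H2-DMb1, H2-Oa and H2-Ob also held the longer core.

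Of the annotations, the 9 members together took the largest share of UMIs in the cells annotated mo-DCs (monocyte-derived dendritic cells), with a median over libraries of 5.83% (range 5.46% to 6.03%). The cDC1 followed at 5.04% (4.67% to 5.76%). Macrophages P3 (2.88%, range 0.926% to 3.56%), monocytes P1-P2 (2.68%, 1.23% to 3.54%) and macrophages P5 (2.18%, 0.398% to 3.93%) formed a middle group with overlapping ranges. B cells stood at 1.81% (0.95% to 2.32%), cDC2 at 1.14% (0.888% to 1.83%) and pDCs at 1.13% (0.749% to 1.50%). Microglia, with both microglia annotations joined, stood at 0.402% (0.118% to 0.868%, n = 6) and joined T cells at 0.0926% (0.047% to 0.148%). The spread between mice was thus narrow in mo-DCs and cDC1 and wide in macrophages and microglia. The annotation was made from the same cells, so these orders are descriptions without a test.

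**Figure D1:**
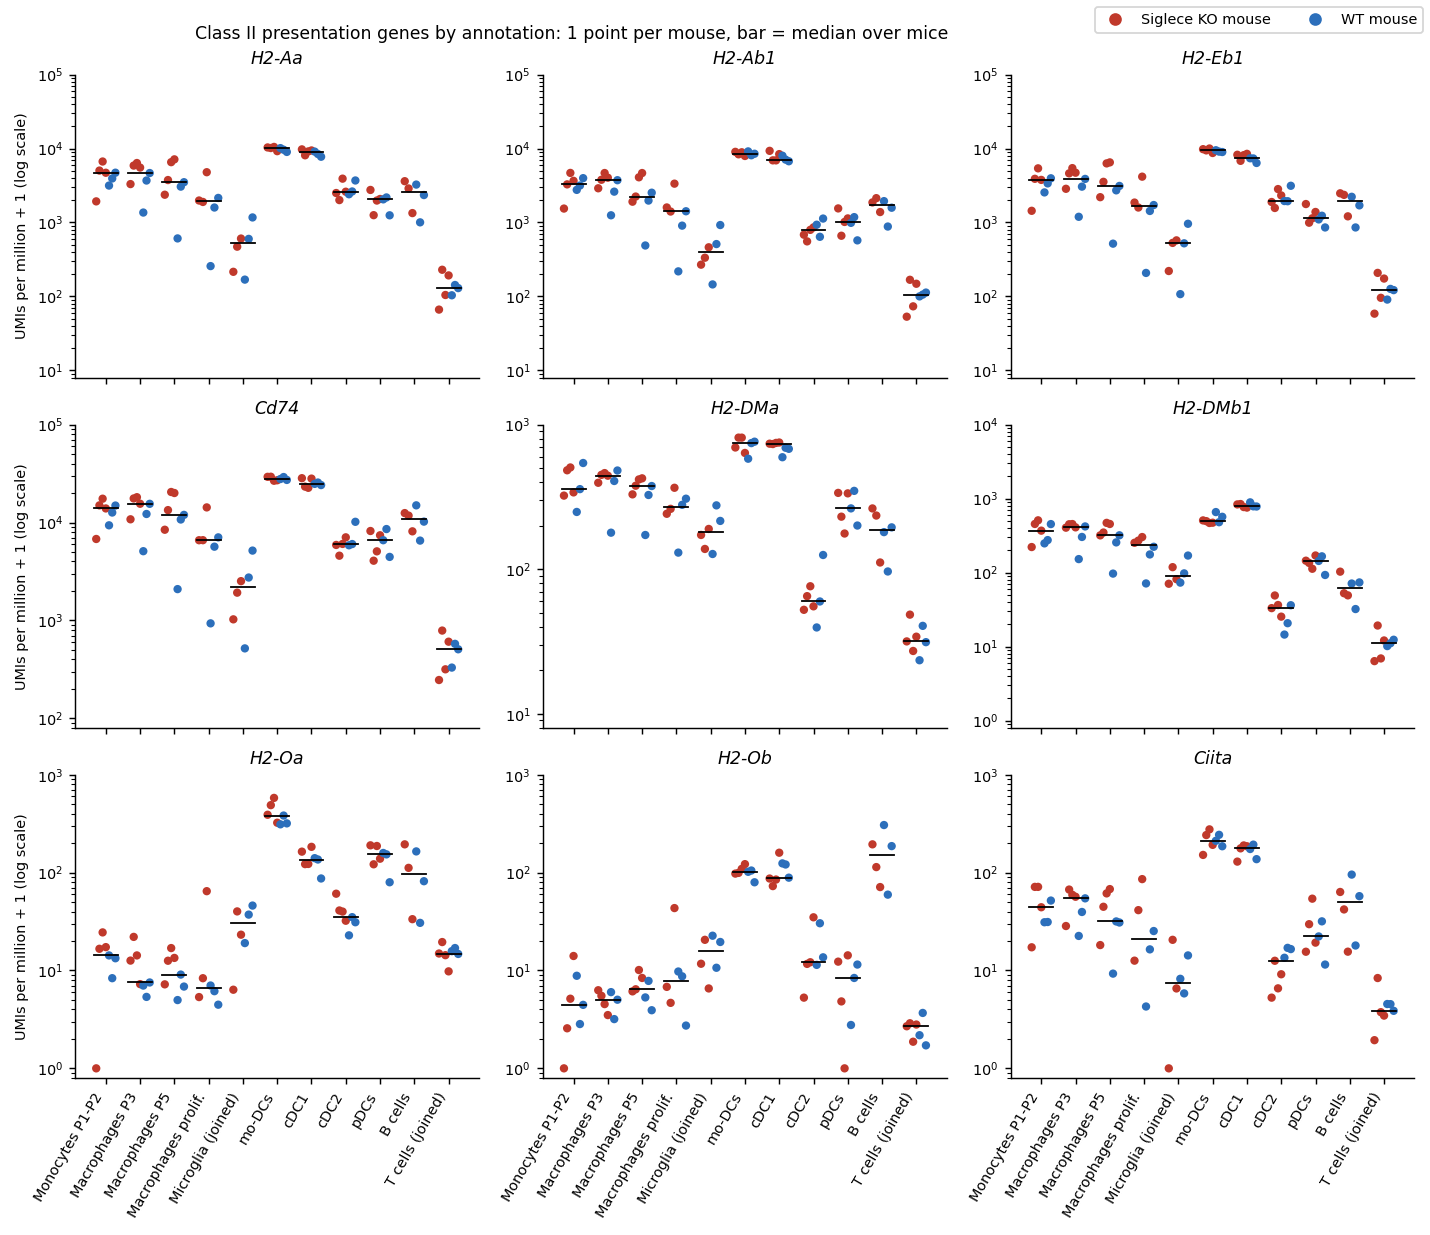
Level of each of the 9 genes (CPM + 1, log scale) in 11 annotations or joined annotations. Each point is 1 mouse with at least 20 such cells, red for KO and blue for WT, and the bar is the median. The classical chains and Cd74 are highest in mo-DCs and cDC1, H2-Oa in mo-DCs and H2-Ob in B cells, and cDC2 points for H2-DMa, H2-DMb1 and Ciita lie far below those of cDC1.

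H2-Aa, the α chain of the I-A molecule, was at 8990.5 to 10500.0 CPM in mo-DCs (median 10116) and at 7740 to 9733 in cDC1 (median 9081). Those ranges overlapped each other and no other annotation. In monocytes it ran from 1928 to 6670 (median 4700), in B cells from 1003 to 3615 (median 2615), in cDC2 from 2006 to 3911 (median 2605) and in pDCs from 1249 to 2752 (median 2053). From monocytes down to the proliferating macrophages every neighbour in the order overlapped the next. H2-Eb1, the β chain of I-E, separated mo-DCs (8696 to 9997) from cDC1 (6375 to 8468) without overlap. Its partner chain H2-Ea, which mice of the H-2b haplotype are known to lack, had a median of 0 to 1.9 CPM in the annotations compared.

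Cd74, the invariant chain, ran from 26712 to 29360 CPM in mo-DCs and from 22620 to 28371 in cDC1, and from 6533 to 14975 in B cells. Per H2-Aa UMI, Cd74 gave 2.89 UMIs in mo-DCs (range 2.54 to 3.03), 4.48 in B cells (3.45 to 6.51), 4.29 in microglia (3.08 to 4.78) and 2.36 in cDC2 (1.54 to 2.75). The B cell and microglia ranges lay above that of mo-DCs, and both overlapped that of macrophages P5 (2.81 to 3.57). Both also overlapped that of joined T cells, the background, which held 4070 Cd74 and 1004 H2-Aa UMIs in WT 2.

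The H2-DM loaders were not ordered alike. H2-DMa was similar in mo-DCs (median 744 CPM, range 580 to 812) and cDC1 (733, 594 to 751). H2-DMb1 was higher in cDC1 (755 to 889) than in mo-DCs (468 to 657), with no overlap. Its neighbouring copy H2-DMb2 had the opposite order, with 517 to 735 in mo-DCs and 184 to 326 in cDC1. H2-DMb2 UMIs per H2-DMb1 UMI had a median of 4.83 in B cells (3.35 to 9.34), 1.84 in cDC2 (1.04 to 2.86), 1.22 in mo-DCs (0.787 to 1.53), 0.297 in cDC1 (0.207 to 0.431) and 0.0747 in macrophages P5 (0.0494 to 0.135). The ratio was thus highest in B cells and lowest in the monocytes (0.0466 to 0.132) and macrophages. The copies are near-identical, and 32.5% of H2-DMb1 UMIs and 43.9% of H2-DMb2 UMIs stood in values that were not whole numbers, so their split is uncertain. From whole-number values alone, the median of H2-DMb1 was 458 CPM in cDC1 and 277 in mo-DCs, the same order, and the H2-DMb2 to H2-DMb1 ratio was 4.97 in B cells, 1.55 in cDC2, 1.29 in mo-DCs and 0.293 in cDC1.

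The H2-O chains, which hold back H2-DM, differed from each other in where they were highest. H2-Oa was highest in mo-DCs, at 311 to 579 CPM, above pDCs (78.7 to 189) and cDC1 (86.1 to 182), which overlapped each other. H2-Ob was highest in B cells (58.6 to 305, median 149), overlapping mo-DCs (78.7 to 121) and cDC1 (71.8 to 159). In monocytes and macrophages P3 and P5, H2-Oa reached at most 23.5 CPM and H2-Ob at most 13.1. In proliferating macrophages they reached 63.6 (15 UMIs) and 42.4 (10 UMIs) in KO 4, from 23 cells, and at most 7.34 and 8.76 in the other 5 mice with 20 or more cells. Joined T cells held 8.80 to 18.5 of H2-Oa and 0.718 to 2.68 of H2-Ob, and tumour/stromal cells at most 1.47 and 1.91.

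The chains did not keep a constant ratio. H2-Oa gave 0.521 UMIs per H2-Ob UMI in B cells (0.435 to 1.00), 1.15 in cDC1 (0.981 to 1.89) and 4.02 in mo-DCs (2.66 to 5.35). In pDCs H2-Ob gave only 0 to 8 UMIs a library beside 15 to 124 of H2-Oa, too few for a ratio. Set against its target, H2-O gave 0.892 UMIs per H2-DM UMI in B cells (0.648 to 1.88), 0.620 in cDC2 (0.268 to 0.828), 0.401 in mo-DCs (0.298 to 0.537), 0.342 in pDCs (0.300 to 0.648), 0.158 in cDC1 (0.119 to 0.226) and 0.0184 in both monocytes (0 to 0.0426) and macrophages P3 (0.00925 to 0.0335). The B cell and cDC2 ranges overlapped. With H2-DMb2 counted among the H2-DM chains, the ratio was 0.396 in B cells (0.291 to 0.558), 0.388 in cDC2 (0.178 to 0.527), 0.325 in pDCs (0.271 to 0.556) and 0.265 in mo-DCs (0.21 to 0.347), with overlap. From whole-number values alone these 4 were at 0.413, 0.388, 0.328 and 0.370 with H2-DMb2, and at 0.919, 0.620, 0.344 and 0.488 without it. T cells had a ratio of 0.376 (0.240 to 0.505) without H2-DMb2, which overlapped those of mo-DCs, pDCs and cDC2. Their H2-DM levels were far below those of mo-DCs but overlapped those of cDC2. H2-DMa was at 22.4 to 47.5 CPM in T cells and 38.5 to 124 in cDC2, and H2-DMb1 at 5.36 to 18.25 and 13.5 to 48.0.

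**Figure D2:**
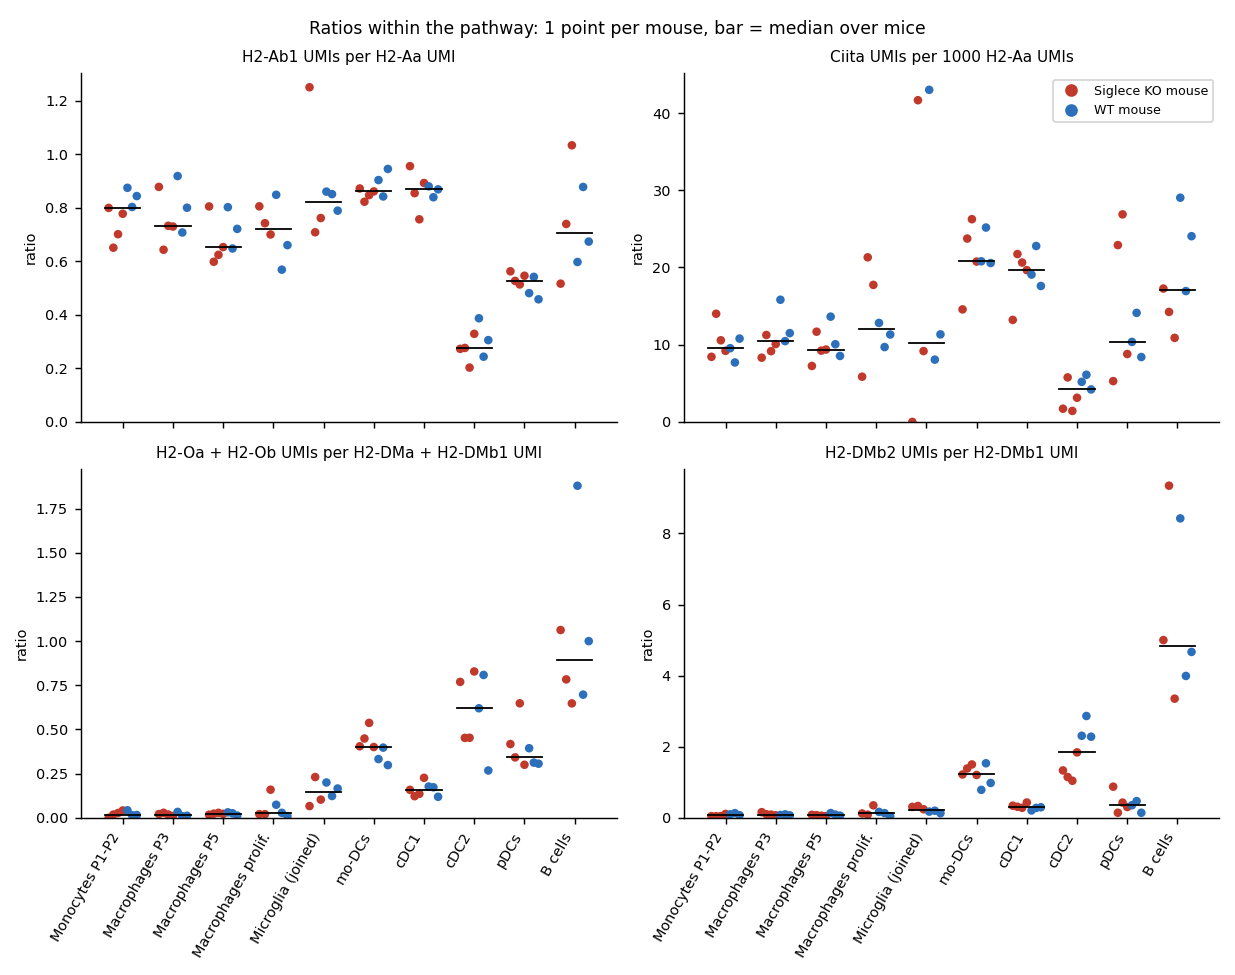
Ratios of UMIs between members (y axes, linear from 0) by annotation, 1 point per mouse with at least 20 cells, red for KO and blue for WT, bar at the median. The cDC2 lie lowest for H2-Ab1 per H2-Aa, with a median of 0.276, and B cells have the highest median for H2-DMb2 per H2-DMb1. For H2-O per H2-DM, drawn without H2-DMb2, B cells (0.892) and cDC2 (0.620) have the highest medians, and their ranges overlap. The cDC2 range also overlaps that of T cells, which are not drawn.

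Ciita, the coactivator, was at 151 to 276 CPM in mo-DCs and 129 to 192 in cDC1, overlapping each other and lying above the other annotations. B cells held 14.6 to 94.5, macrophages P3 21.5 to 66.1 and monocytes 16.3 to 70.5. The X box complex was flat by comparison: across the 11 monocyte, macrophage, dendritic, B cell and microglia annotations the median of Rfx5 was 7.49 to 32.3 CPM, of Rfxank 6.66 to 12.9 and of Rfxap 19.0 to 45.3. Over the 23 annotations, Ciita had a Pearson r of 0.96 with the mean log2 level of H2-Aa, H2-Ab1, H2-Eb1 and Cd74, whereas Rfx5 had 0.12, Rfxank -0.05 and Rfxap -0.32. H2-DMa (0.94) and H2-DMb1 (0.92) followed Ciita, with H2-Ob at 0.80 and H2-Oa at 0.60.

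Of 10996 genes at 20 CPM or more in some annotation, the 10 non-members most like the classical chains by r were Gm6377 (0.94), Pkib (0.91), Ifi30 (0.91), Pirb (0.91), Cd40 (0.91), Irf5 (0.90), H2-DMb2 (0.90), Plbd1 (0.90), Themis2 (0.90) and Spi1 (0.89). By Spearman's rho 8 of these 10 stayed among the 10 highest non-members, and Ifi30 ranked 55th of all genes. Ifi30 is the lysosomal thiol reductase of antigen processing, Cd40 the costimulatory receptor and Spi1 the myeloid and B cell transcription factor PU.1. The points are 23 annotations from the same 7 libraries and 10 of them are T cell annotations, so r mostly sets antigen-presenting cells against T cells.

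The cells annotated cDC2 had low Ciita and H2-DM beside cDC1. Their Ciita was 4.28, 11.6, 5.57 and 8.15 CPM in KO 1 to KO 4 and 12.5, 16.0 and 15.5 in WT 1 to WT 3, from 2 to 24 UMIs a library. Every one of these values lay below the lowest cDC1 value of 129. All KO values also lay below all WT values. Chance alone splits 4 mice from 3 so, in either direction, with a probability of 0.0571 when gene and unit are fixed beforehand. Ciita in cDC2 had the lowest adjusted p of the 92 tests of a member in a unit, so that probability does not hold for it. The share of all genes split so in cDC2 was not counted, and edgeR did not call Ciita there (adjusted p = 0.420). H2-DMa was at 38.5 to 124 and H2-DMb1 at 13.5 to 48.0, against 594 to 751 and 755 to 889 in cDC1. H2-Ab1 was low beside its partner chain, at 0.276 UMIs per H2-Aa UMI (0.203 to 0.387), where pDCs had 0.527 (0.458 to 0.563) and cDC1 0.869 (0.757 to 0.955).

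Marchf1, the ligase known to mark surface class II for turnover, was at 0 to 6.23 CPM in cDC2, 48.1 to 99.1 in mo-DCs and 79.3 to 122 in cDC1. Of the genes of T cell contact on the presenting side, the costimulatory ligands Cd80 and Cd86, the costimulatory receptor Cd40 and the adhesion molecule Icam1 were all higher in cDC2 than in cDC1, without overlap. Cd80 was at 231 to 421 and 9.87 to 29.1, Cd40 at 225 to 431 and 36.3 to 68.9, Cd86 at 258 to 461 and 153 to 232, and Icam1 at 259.8 to 416 and 74.6 to 164. Ccr7, the receptor that guides dendritic cells to lymph nodes, was at 2121 to 4932 in cDC2 and at most 528 in mo-DCs.

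The label cDC2 was not borne out by its usual markers. Cd209a was at 0 in 6 of 7 libraries (a count of 0 allows at most 6.42 CPM in any of them), Clec10a at 1.04 to 7.35, Sirpa at 14.6 to 26.0 and Itgax at 4.28 to 33.0 CPM. In mo-DCs the same genes stood at 11.2 to 128, 65.4 to 218, 154 to 230 and 226 to 302. Of the 11 conventional dendritic cell markers checked, Flt3, Zbtb46, Ccr7, Fscn1 and Batf3 were highest in cDC2, and Xcr1 and Clec9a in cDC1. The authors' names are kept here as labels of the annotations.

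B cell levels differed between libraries. H2-Aa was at 3615, 2882 and 1338 CPM in KO 2, KO 3 and KO 4 and at 3253, 1003 and 2349 in WT 1, WT 2 and WT 3, with KO 1 left out for having 8 B cells. KO 4 and WT 2 were the low libraries by CPM, and each group held at least 1 high and 1 low mouse. Their B cells were also the deepest, with medians of 10536 and 14095 UMIs a cell against 2325.5 to 4208 in the others. Counted per cell, H2-Aa was not low there, with medians of 10 and 8 UMIs against 7 to 17 in the others. In KO 4 and WT 2, Ciita was at 14.6 and 17.0, and H2-Ob at 70.2 and 58.6, against 41.1 to 94.5 and 113 to 305 in the others. The 7 B cell markers summed to 1322 and 1537 CPM in those 2 libraries and to 2110 to 5535 in the others, and none was at 0. The 12 monocyte and macrophage markers summed to 3400 and 6263 there and to 1129 to 3277 in the other 4. Ly6c2, which was highest in pDCs among the annotations, gave 2516 and 5497 of those sums, and was also at 2244 in WT 3. The other 11 markers summed to 884.5 in KO 4 and 767 in WT 2 and to 932 to 1483 in the other 4. The part of these markers and of depth in the B cell levels was not tested.

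Class II levels of macrophages differed most in WT 1. H2-Aa in macrophages P5 was at 2371, 3746, 6538 and 7133 CPM in KO 1 to KO 4 and at 608, 3052 and 3503 in WT 1 to WT 3. The groups overlapped, with KO 3 and KO 4 high and WT 1 lowest. By Xist and Y-linked genes KO 3, KO 4, WT 1 and WT 2 were male and KO 1, KO 2 and WT 3 female, so the males held both the highest and the lowest values. In monocytes P1-P2 of the same mice the values were 1928, 5031, 6670 and 4700 in KO and 3155, 3934 and 4709 in WT. WT 1 was thus lowest in macrophages and not in monocytes. Its ratio of macrophages P5 to monocytes was 0.193 for H2-Aa, 0.223 for Cd74 and 0.275 for Ciita. In the other 6 mice these ratios ran from 0.744 to 1.52, from 0.803 to 1.44 and from 0.589 to 1.55.

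Macrophages P5 of WT 1 were not low in every gene of the interferon pathway. Ifngr1, a chain of the Ifng receptor, was at 201 CPM there against 145 to 376 in the other mice. Irf1, which acts on the Ciita promoter, was at 114 against 139 to 228, the lowest of the 7. The 8 T cell markers summed to 13.5 CPM in macrophages P5 of WT 1, to 44.5 and 29.9 in WT 2 and WT 3 and to 64.0 to 76.9 in KO, beside the 10.6% of T cells in that library. The part of T cell share, Ifng and T cell RNA in the macrophage levels was not tested.

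**Figure D3:**
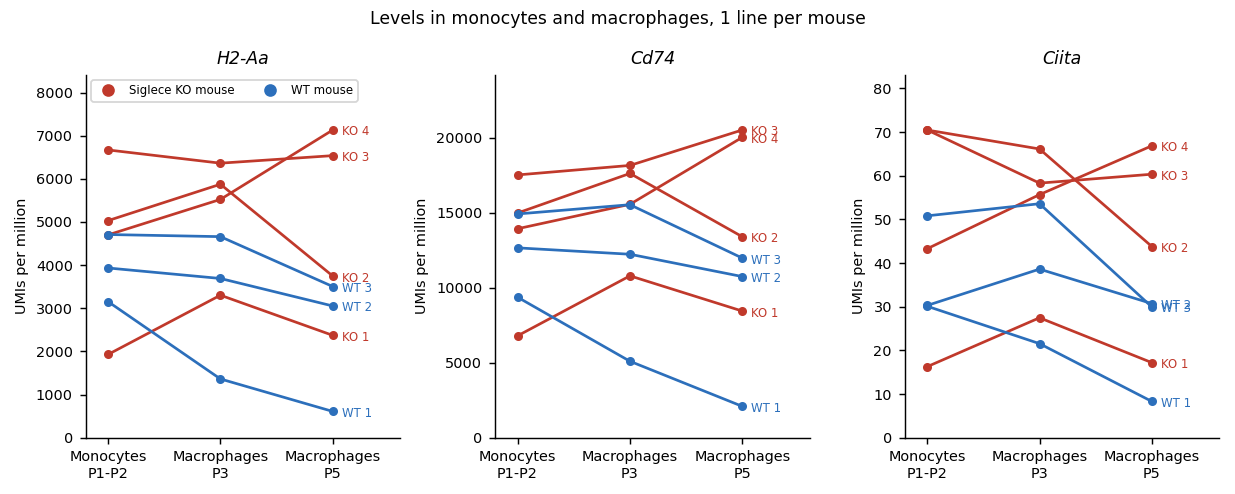
H2-Aa, Cd74 and Ciita (CPM, linear from 0) in monocytes P1-P2, macrophages P3 and macrophages P5, 1 line per mouse, red for KO and blue for WT. WT 1 falls from 3155 to 608 for H2-Aa, while KO 4 rises from 4700 to 7133.

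Microglia held few class II UMIs, with 9 (KO 3) to 441 (WT 3) of H2-Aa in a library. H2-Aa was at 214, 470, 244 (13 cells) and 605 CPM in KO 1 to KO 4 and at 168, 599 and 1169 in WT 1 to WT 3. T cells of the same libraries held 65.4, 229, 104 and 192 in KO and 103, 142 and 129 in WT. Microglia lay above joined T cells in each library, by least in WT 1 and by most in WT 3. Of the T cell annotations, the naive or early activated CD4+ T cells came closest to the microglia in KO 3 and WT 1. They held 259 CPM in KO 3, above its 13 microglia (244). In WT 1 they held 165, just below the microglia (168), and in KO 2 they held 413 against 470. The 10% of microglia with the most H2-Aa held 34.4% to 63.7% of it, with a median of at most 1 UMI a cell and up to 68 in 1 cell. That range overlapped those of T cells (33.6% to 47.1%), cDC2 (40.6% to 63.0%) and macrophages P5 (28.3% to 44.5%, and 77.0% in WT 1). In cDC1 the top 10% held 17.3% to 20.8%.

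H2-DMa was at 126 to 275 CPM in joined microglia, against 247.9 to 542 in monocytes and 22.4 to 47.5 in T cells. The 2 microglia annotations differed, with 157 to 325 in the main one (3 WT mice) and 49.1 to 126 in low-quality/activated cells (5 mice, from 4 to 13 UMIs). The ratio of H2-DMa to H2-Aa was 0.191 to 1.29 in the former and 0.125 to 0.382 in the latter, and both ranges overlapped that of T cells (0.173 to 0.468). In monocytes it was 0.0908 (0.0721 to 0.167). Of the 12 monocyte and macrophage markers, the sum in microglia was 775 to 1005 in KO and 721 to 1771 in WT. Ciita gave 0 to 5 UMIs a library in microglia (0 to 19.6 CPM), close to the T cell background of 0.94 to 7.37 CPM at this depth, and the 0 of KO 1 allows up to 16.1 CPM.

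**Figure D4:**
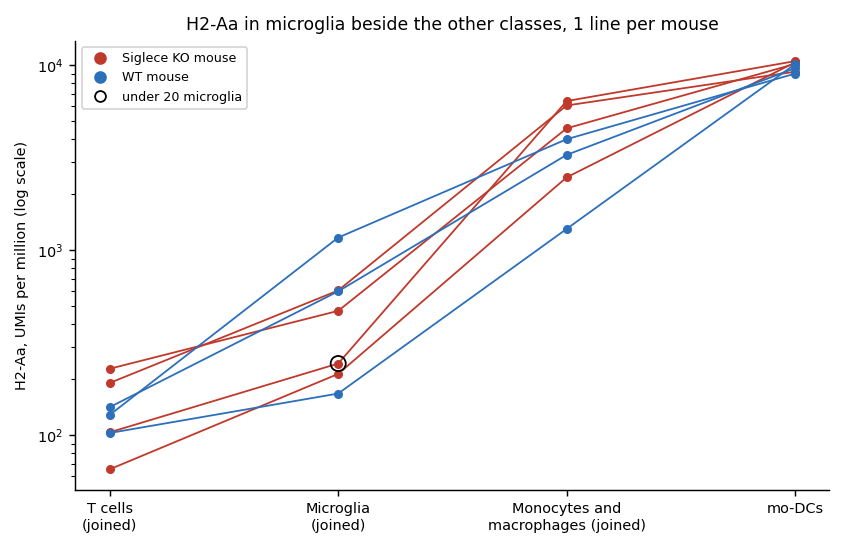
H2-Aa (CPM, log scale) in joined T cells, joined microglia, joined monocytes and macrophages, and mo-DCs, 1 line per mouse, red for KO and blue for WT. The circled point has under 20 microglia. Microglia spread from 168 to 1169, while mo-DCs lie between 8990.5 and 10500.0.

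Because both shares and depth differ, cells were also thinned to 1500 UMIs each. A UMI of H2-Aa was then found in at least 98.8% of cDC1 in each library, 96.3% to 98.6% of mo-DCs, 60.6% to 84.8% of cDC2, 27.8% to 93.8% of macrophages P5 and 15.4% to 58.3% of microglia. Joined T cells, as the background, gave 12.4% to 32.9%. Unthinned, the shares were 46.2% to 68.8% in microglia (median depth 1823 to 4264 UMIs) and 38.7% to 59.5% in T cells (3698 to 7129 UMIs). Both low ends of the microglia are KO 3, with 2 and 6 of 13 cells. Without it microglia gave 27.9% to 58.3% thinned and 50% to 68.8% unthinned, and the microglia and T cell ranges still overlapped. Ciita after thinning was found in 16.8% to 33.5% of mo-DCs, 13.1% to 25.8% of cDC1 and 0 to 4.04% of cDC2, with 0.164% to 1.21% of T cells. In KO 1 and KO 3 no thinned cDC2 held a Ciita UMI, which at this depth allows up to 6.52% and 4.55% of cells with one; unthinned, their cDC2 held 2 and 4 Ciita UMIs.

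For KO against WT, the shares of cells with H2-Aa, Cd74 and Ciita were compared over mice in 11 cell units, 33 exact two-sided permutation tests. The smallest p this design allows is 0.0571 for 4 mice against 3 and 0.1 for 3 against 3, so none of these tests could pass 0.05 (adjusted p was 0.943 or more in each), and they do not show that the shares were alike. In macrophages P5, H2-Aa was found in 63.5%, 82.1%, 92.3% and 93.8% of KO cells and in 27.8%, 72.4% and 78.9% of WT cells, with overlap. The mean difference was 23.2 percentage points (exact permutation p = 0.229), and 7.23 points without WT 1.

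The same units were compared between KO and WT across all genes with edgeR, on UMIs summed per mouse, with a call at a Benjamini-Hochberg adjusted p under 0.05. No member was called in any of 92 tests of a member in a unit, of which 4 had an unadjusted p under 0.05. The share of all genes called was 0.0415% in microglia, 0.0188% in macrophages P5, 0.045% in pDCs and 0% in monocytes, macrophages P3, proliferating macrophages, joined monocytes and macrophages, mo-DCs, cDC1, cDC2 and B cells. The absence of calls among the members is therefore near the background. At an unadjusted p under 0.05, 44 (B cells) to 798 (mo-DCs) genes passed by edgeR in the units, and DESeq2 called 0 to 34 genes at an adjusted p under 0.05, with no member among them.

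The size of the estimates differed by unit. In macrophages P5 all 9 members had a positive log2 change, from 0.42 to 1.12 with a median of 0.94, where the median of all genes was near 0. H2-Aa was at 1.05 ± 0.69 (SE, n = 4 and 3, adjusted p = 0.818), and without WT 1 at 0.59 (adjusted p = 0.997). Without both mice numbered 1 it was at 0.82 (adjusted p = 0.624), and with a term for sex at 1.00 ± 0.76 (adjusted p = 0.808). Cd74 was at 0.91 ± 0.65 (adjusted p = 0.832) and Ciita at 1.04 ± 0.60 (adjusted p = 0.790). Without WT 1 these were 0.45 and 0.62, and the 9 members ran from 0.14 to 0.69 with a median of 0.51. In macrophages P3 the 8 members tested were at 0.29 to 1.22 with a median of 0.56, and without WT 1 at -0.05 (H2-DMa) to 1.22 with a median of 0.23. In proliferating macrophages (n = 3 and 3), the 7 members tested were at 0.29 to 1.54 with a median of 1.11, and without WT 1 at -0.04 to 0.85 with a median of 0.61. H2-Aa was at 1981, 1893 and 4781 CPM there in KO 1, KO 2 and KO 4 and at 256, 1592 and 2146 in WT, with overlap, and its log2 change was 1.11 ± 0.94 (adjusted p = 0.997).

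H2-Oa had the lowest unadjusted p among the members in these cells. In joined monocytes and macrophages it was at 6.63, 15.2, 16.5 and 13.7 CPM in KO and 6.86, 6.84 and 6.98 in WT. KO 1 lay below all WT mice and the other 3 KO mice above them. The log2 change was 0.91 ± 0.27 (adjusted p = 0.827), and 1.22 ± 0.38 in macrophages P3 (adjusted p = 0.867). Without WT 1 these were 0.89 and 1.22, while the 9 members in the joined cells went from a median of 0.63 to 0.37. These levels are close to those of joined T cells (8.80 to 18.5 CPM) and NK cells (7.38 to 23.0). Tumour/stromal cells held at most 1.47 of H2-Oa, with H2-Aa at 40.1 to 139, beside 65.4 to 229 of H2-Aa in T cells. Whether the H2-Oa of T cells is a background was not tested.

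In mo-DCs and cDC1, where the spread between mice was small, the estimates were small as well. H2-Aa was at 0.03 ± 0.09 in mo-DCs (adjusted p = 0.959) and 0.11 ± 0.10 in cDC1 (adjusted p = 0.902), and the members ranged from -0.26 to 0.35 and from -0.13 to 0.29. In monocytes H2-Aa was at 0.17 ± 0.36, in B cells at 0.22 ± 0.40 (n = 3 and 3) and in pDCs at 0.13 ± 0.30. In cDC2, 7 of 9 members had a negative log2 change, and Ciita was at -0.97 ± 0.36 (adjusted p = 0.420). In microglia, without KO 3 for its 13 cells, H2-Aa was at -0.62 ± 0.89 (adjusted p = 0.824) and Cd74 at -0.66 ± 0.96. All 7 members tested there were negative, and without WT 3 H2-Aa was at 0.13.

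**Figure D5:**
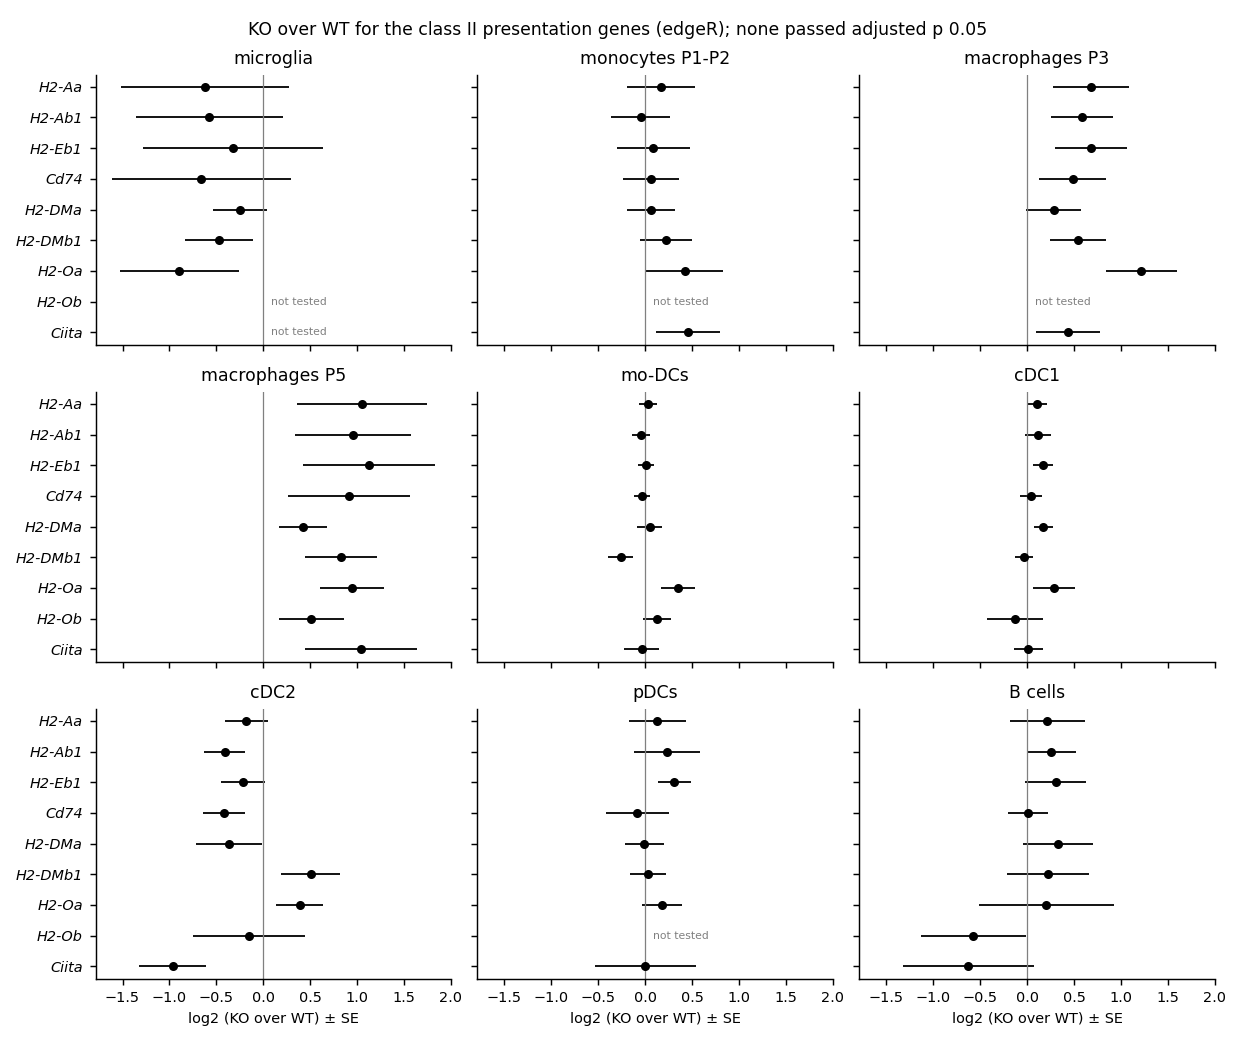
Log2 change of KO over WT with its SE (x axis) for the 9 genes (y axis) in 9 cell units, from edgeR over 3 or 4 KO and 3 WT mice. Macrophages P5 lie to the right of 0 with wide errors (H2-Aa 1.05 ± 0.69), mo-DCs and cDC1 lie close to 0, and no gene passed the threshold.

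Whether the KO over WT difference itself differed between cell classes was tested with each mouse as a block. Between microglia and joined monocytes and macrophages (n = 3 and 3), H2-Aa was called, at -1.18 ± 0.29 on the log2 scale (adjusted p = 0.0235): KO over WT was lower in microglia than in monocytes and macrophages. Of the other 6 members that could be tested within microglia, none passed. They were at -0.64 for H2-DMa to -1.69 for H2-Oa, the latter from 1 to 17 microglial UMIs a library, and Cd74 was at -0.98 ± 0.28 (adjusted p = 0.0814). Ciita (0 to 5) and H2-Ob (1 to 12 microglial UMIs a library) were too low there to be read. Across all 12570 genes of this test 0.414% were called. Only 4820 genes were tested within microglia, and the share called among those alone is not given. The H2-Aa call was lost without KO 1 (-1.14, adjusted p = 0.175), WT 2 (-1.23, adjusted p = 0.144) or WT 3 (-0.93, adjusted p = 0.336), and was at an adjusted p of 0.0499 without WT 1. It was also lost within either microglia annotation, fits chosen after seeing the data with 2 KO and 3 WT mice: H2-Aa was at -0.99 ± 0.39 in low-quality/activated microglia (adjusted p = 0.982) and at -1.06 ± 0.31 in the main annotation (adjusted p = 0.145, with 10 or more cells a mouse).

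In each mouse, H2-Aa of microglia stood at 8.7%, 10.3%, 3.8% and 10.0% of the level in monocytes and macrophages in KO 1 to KO 4, KO 3 having 13 microglia, and at 12.9%, 18.3% and 29.4% in WT 1 to WT 3. The groups did not overlap in this ratio with the annotations joined, and overlapped within each. Chance alone splits 4 mice from 3 so, in either direction, with a probability of 0.0571 for a gene fixed beforehand. H2-Aa was taken here after its call on the same counts, so this split is no further support. Without KO 3, which the fit left out, that probability is 0.1 for 3 mice against 3. The share of all genes split so was not counted. The T cell background was not taken off, and in WT 1 H2-Aa was at 168 CPM in microglia and 103 in T cells. In low-quality/activated microglia the ratio was 10.7%, 8.2%, 3.8% and 6.5% in KO 1 to KO 4 and 19.9%, 10.1% and 17.2% in WT. In the main annotation it was 7.4%, 12.3% and 12.9% in KO 1, KO 2 and KO 4, from 7 to 15 cells, and 9.4%, 21.0% and 34.0% in WT. Low-quality/activated cells made up 66.7%, 66.7%, all and 69.4% of the microglia of KO 1 to KO 4 and 61.1%, 47.8% and 59.4% in WT. The part of this mix in the call with both annotations joined was not tested beyond the fits within each. The same test between cDC2 and joined monocytes and macrophages (n = 4 and 3) called 0% of genes, and 715 had an unadjusted p under 0.05. Ciita was at -1.81 ± 0.38 there (adjusted p = 0.602) and H2-Aa at -1.04 ± 0.345 (adjusted p = 0.735).

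Other genes of the pathway were taken from lists of 46 genes for loading and turnover, class II transcription, inputs to Ciita and T cell contact. None of 402 tests of such a gene in a unit was called, with 27 genes tested in microglia to 42 in mo-DCs and medians of -0.24 to 0.02 on the log2 scale. The lowest adjusted p was 0.057, for Ctsl in microglia (-1.10 ± 0.25), a cathepsin that cleaves Cd74. Levels differed between annotations: Ctss, the cathepsin that trims Cd74 in antigen-presenting cells, had a median of 4451 CPM in microglia, 4457 in macrophages P5, 1634 in mo-DCs and 543 in cDC1. Cst3, which inhibits such cathepsins, was at 29278 in cDC1, 15294 in mo-DCs, 9086 in microglia and 3093 in macrophages P5. Lgmn was at 2382 in microglia and 67.8 in cDC1, and Irf8 at 1475 in cDC1 and 2010 in pDCs against 193 in macrophages P5. Jak2, a kinase of the Ifng receptor, was highest in cDC2 among these annotations (582), where Ifngr1 was at 62.2.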

How the data were processed

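The authors deposited a gene-by-cell table of expected counts, UMIs that were not whole in 7.5% of non-zero values (tolerance 0.001), and a table with the cell annotation. The submitters' processing notes name STARsolo, STAR 2.7.10a and mm10. The authors also deposited the count of detected genes and the percent of mitochondrial UMIs per cell, per the file headers, and neither was used. UMIs were summed per mouse and annotation, with at least 20 cells, and divided by all UMIs of that annotation. Sums were rounded and tested with edgeR 4.0.16 (quasi-likelihood, TMM, filterByExpr), the Benjamini-Hochberg adjustment running over all genes of a unit. A call was an adjusted p under 0.05. DESeq2 1.42.0 was an alternative. Shares of cells with a UMI were taken after thinning to 1500 UMIs and compared by exact permutation over mice. P-values measure the spread between mice, 1 library each. Doublets were not called here; counts without cells holding B or T cell lineage UMIs were an alternative. No more than 4 KO and 3 WT mice entered a test, with 16037214 to 38966377 UMIs a library.

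All 9 genes are named, with any gene of the pathway lists that was called, otherwise those highest in an annotation, and the 10 genes most like the members. The members and lists were chosen with earlier results of these data known, and Cd80, Cd86, Icam1, Marchf1 and the dendritic cell markers, Ly6c2, Ifngr1, Irf1 and Ctsl were picked after their values were seen.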

Additional observations from a re-analysis of the deposited data

Results flagged for a closer look

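Ciita in joined monocytes and macrophages was at 18.4 CPM in KO 1 against 54.5 to 60.7 in the other 3 KO mice, a gap beyond the 95% limit of Dixon's test for a single distant sample. H2-Ob in cDC1 was at 159 CPM in KO 4 against 71.8 to 86.0 in the other KO mice, by the same test. It was applied to 72 groups of a gene in an annotation, all of KO mice, and marked 2, where chance alone marks about 1 in 20. The 3 WT mice were too few for it, so no WT mouse, WT 1 included, was checked. KO over WT of H2-Aa differed between microglia and joined monocytes and macrophages, at -1.18 on the log2 scale, by a test of the difference itself, and the call was lost without KO 1, WT 2 or WT 3 and within either microglia annotation.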

How the results depend on the processing

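No member was called in 1520 alternative tests of KO over WT in a unit (lowest adjusted p 0.133), and 110 of these had the other sign. Counts of all genes called were 2 in microglia and macrophages P5, 3 in pDCs and 0 in the other units. With no filter on low counts they were 41 in microglia, 70 in monocytes, 33 in macrophages P3, 117 in macrophages P5, 24 in proliferating macrophages, 5 in joined monocytes and macrophages, 182 in mo-DCs, 105 in cDC1, 113 in cDC2, 38 in pDCs and 14 in B cells. DESeq2 gave 6 in macrophages P3, 20 in P5, 20 in the joined cells, 34 in mo-DCs, 15 in cDC1, 13 in cDC2, 6 in pDCs and 3 in B cells. Replicate numbers did not pair the mice, as same-numbered mice correlated at -0.448 to 0.153. With the replicate block the counts were 17 in microglia, 3 in monocytes, macrophages P3 and the joined cells, 21 in proliferating macrophages, 8 in mo-DCs, 5 in cDC1, 33 in cDC2, 40 in pDCs and 27 in B cells, and under the block Cd74 was at 0.23 in microglia and H2-Aa at -0.01 in monocytes and -0.01 in microglia. A term for sex gave 10 in microglia and 0 in pDCs, whole-number values 4 in microglia and 1 in macrophages P5, and leaving out cells with lineage UMIs 0 in macrophages P5, and 24 in microglia and 4 in proliferating macrophages, where it also left 1 more KO mouse under 20 cells (2 KO and 3 WT mice). At 50 cells or more, pDCs had 1 and H2-Aa there was at -0.05; microglia, proliferating macrophages and B cells could not be run. Without the mice numbered 1, chosen after seeing the data, the counts were 0 in macrophages P5, 1 in cDC1, 2 in cDC2 and 1 in pDCs.

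Leaving out each mouse in turn gave 3 to 15 in microglia, 0 to 3 in monocytes, 0 to 2 in macrophages P3, 0 to 4 in P5, 0 to 6 in proliferating macrophages, 0 to 5 in the joined cells, 0 to 2 in mo-DCs, 0 to 3 in cDC1, 0 to 4 in cDC2 and 0 to 12 in pDCs. H2-Aa then ran from -1.14 to 0.13 in microglia, -0.02 to 0.42 in monocytes, -0.02 to 0.07 in mo-DCs, -0.38 to 0.04 in cDC2, -0.07 to 0.29 in pDCs and -0.07 to 0.54 in B cells, and Cd74 from -1.18 to 0.13 in microglia. The differences between cell classes gave 13 to 115 calls for microglia (52 with the 3 KO and 3 WT mice of that fit) and 0 to 2 for cDC2, with H2-Aa at -1.42 to -0.93 and Cd74 at -1.39 to -0.66 for microglia. Within low-quality/activated microglia, chosen after seeing the data, this difference gave 5 calls with H2-Aa at -0.99, and within main microglia 30 calls with H2-Aa at -1.06, from 2 KO and 3 WT mice. The share of microglia with H2-Aa ran from -11.1 to 4.74 points. The summed level of the members was 5.57% in cDC1 and 6.31% in mo-DCs from whole-number values, and 6.2% in mo-DCs with the members left out of the denominator. The cause of these shifts was not tested. The fits rested on 21 to 113 microglia a library.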
